A study of Mus musculus with 6 samples.

Results

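The genes described here are 54 genes of the G2 phase and mitosis, namely mitotic transcription factors, cyclins A2 and B with their kinase, mitotic kinases, spindle checkpoint genes, and kinetochore, spindle and cytokinesis genes. They were taken by gene name, and by RefSeq accession for older names (Cdk1 is listed as Cdc2a), from a table of 25697 probes. Of the 54 genes, 45 had a row in the table, with 69 probes in all. The RNA was from MEFs, fibroblasts cultured from mouse embryos, of the C57BL/6 background, kept in DMEM with 10% FBS and harvested at 50% confluence. In 3 samples the cells carried truncated NELF-B, labelled ATG, and in 3 samples full-length NELF-B, labelled FL. The labels do not say how either form was brought into the cells, whether a group was 1 clone or whether the cells kept a NELF-B of their own. NELF-B is a subunit of the negative elongation factor, which holds RNA polymerase II near promoters, and the series is about start of its translation at a codon other than AUG. The comparison asks whether transcripts of the mitotic machinery differed between the forms.

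Entry into mitosis is driven by the kinase CDK1 with cyclin A2 and the B cyclins, and CDC25 phosphatases remove the phosphates that hold CDK1 back. The mitotic genes are transcribed late in the cell cycle by the MuvB complex with B-MYB (the product of Mybl2) and FOXM1, which act at an element called CHR, often close to a CCAAT box. The kinetochore then ties chromosomes to the spindle, the spindle checkpoint holds back the ubiquitin ligase APC/C until all are attached, and the midzone and its GTPase switch direct the cleavage of the cell. In fibroblast cultures the RNA level of these genes is commonly read as a sign of how many cells are dividing. In RNA of a whole culture, more cells in G2 and mitosis and more RNA per such cell cannot be told apart.

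The arrays had median intensities of 143 to 152. A detection p under 0.05, called above background here, was reached by 46.4% to 48.7% of probes. Of 11 fibroblast markers, 9 were above background on all 6 arrays, Col1a1, Col1a2, Pdgfra, Pdgfrb and Vim among them, whereas Thy1 and Lum were on none. The summed normalised signal of the fibroblast markers ranged from 21658 to 23376 with truncated NELF-B and from 22923 to 27477 with the full-length protein. Of 7 macrophage and leukocyte markers, Cd68 and Cd14 were above background on all 6 arrays and Adgre1, Lyz2 and Itgam on none, and their sum ranged from 1894 to 1986 with truncated NELF-B, below the 2237 to 2387 with the full-length protein. Pecam1, Cdh5 and Cldn5 of the endothelial list and Krt18, Krt14 and Cldn4 of the epithelial list were above background on no array. Of the markers with a row, 1 of 6 endothelial and 1 of 5 epithelial ones were above background on 3 or more arrays. Their sums were thus mostly signal near background. The endothelial sum was nonetheless 143 to 151 with truncated NELF-B and 158 to 176 with the full-length protein, without overlap. The epithelial sum was 129 to 139 and 134 to 156. The neural sum, with Map2 above background on all 6 arrays, was 267 to 316 and 321 to 325. For skeletal muscle it was 128 to 171 and 140 to 162. The part of these cell types in the results below was not tested. The Nelfb probe read 7.01, 7.09 and 6.94 (log2) in cells of the truncated form and 6.79, 6.63 and 6.65 with the full-length form (log2 fold change 0.32 ± 0.11, SE, adjusted p = 0.144, limma), and since the place of its probe in the transcript is not given here, this does not check the labels.

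Nearly every mitotic gene that could be measured had a somewhat higher signal with truncated NELF-B, and Foxm1 passed the test over all genes, a call that was lost in 6 of 17 alternatives. Of the 54 genes, 35 were above background on at least 3 of the 6 arrays and were tested, 34 of them on all 6. All 35 had a log2 fold change (truncated over full-length) above 0, from 0.08 to 0.77, where 51.7% of the 8990 genes tested did. Their median was 0.43 (1.35-fold), and that of all genes tested was 0.01. With limma and Benjamini-Hochberg adjustment over the 8990 genes, 1 of the 35 was higher at an adjusted p under 0.05 (2.86%), against 0.512% of all genes tested, and none was lower, against 1.09% (1.6% in either direction). At an unadjusted p under 0.05, 22 of the 35 were higher (62.9%, against 9.78% of all genes tested) and 0 were lower (against 10.3%). For 24 of the 35 (68.6%) the truncated arrays did not overlap with the full-length ones and were higher, which held for 12.9% of all genes tested. The remaining 11 overlapped, and for none did the truncated arrays lie wholly below (12.8% of all genes tested). For 33 of the 35 the 95% confidence interval lay within 2-fold either way, as it did for 8733 of the 8990 genes tested. This holds on the normalised scale, which understates folds of dim probes. Whether replicates were grown separately is not stated in the labels. The p-values and intervals therefore cover only the scatter among these 6 samples, possibly technical scatter.

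**Figure D1:**
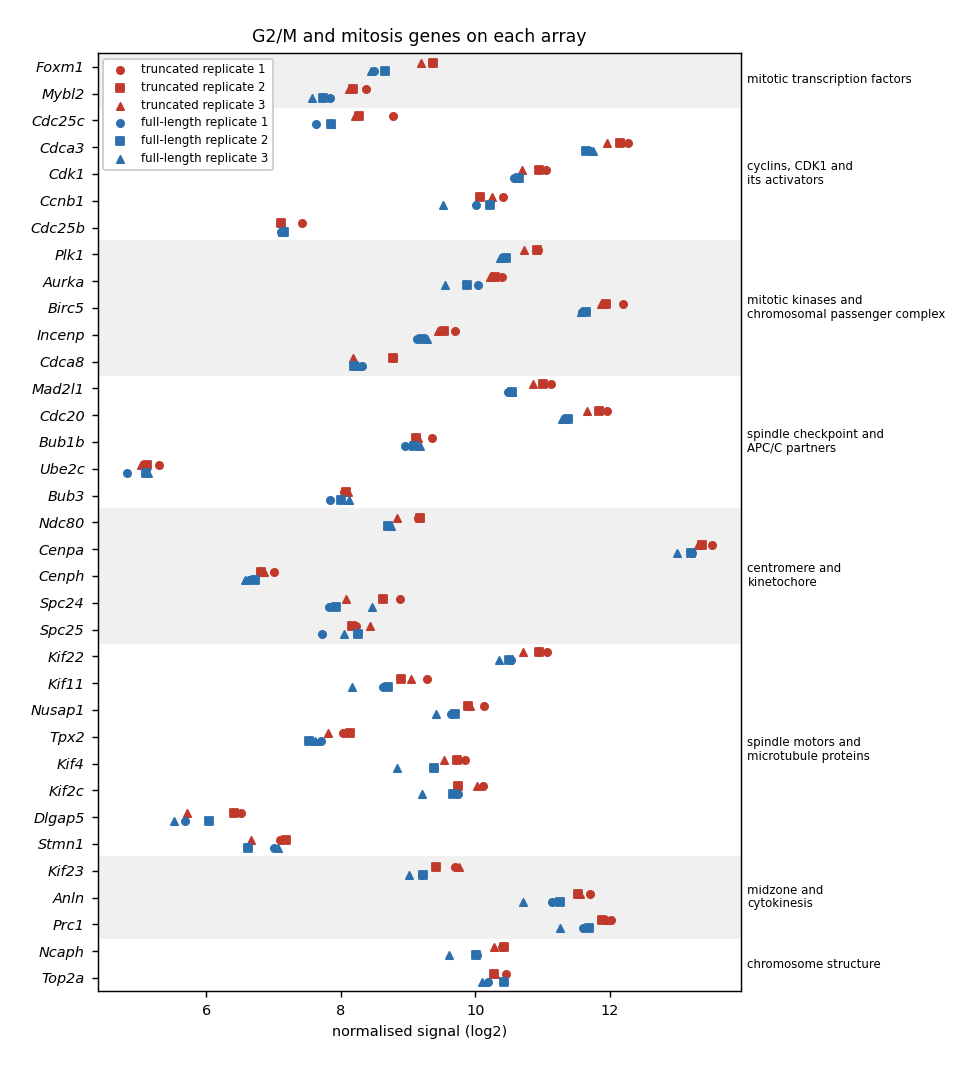
Normalised signal (log2, horizontal axis) of the 35 tested genes on each of the 6 arrays, grouped by role and ordered by p within each role, with truncated arrays in red and full-length arrays in blue. In 24 genes the red symbols lie wholly to the right of the blue ones, and no gene shows the reverse.

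The transcription factors of the mitotic programme had the largest median of the classes. Foxm1, a forkhead factor that switches on genes of G2 and mitosis, read 9.36, 9.37 and 9.19 on truncated replicates 1, 2 and 3 and 8.49, 8.66 and 8.45 on full-length replicates 1, 2 and 3. The lowest truncated array thus stood above the highest full-length array by more than the whole range within either form. Foxm1 rose by 0.77 ± 0.11 on the log2 scale (SE, 1.71-fold, 95% confidence interval 0.52 to 1.03, adjusted p = 0.0267, limma), and it ranked 25th by p among the 8990 genes. The call was lost with the replicate block (adjusted p = 0.0607, limma) and when any single array but truncated replicate 3 was left out (adjusted p = 0.0807 to 0.117). The other Foxm1 probe gave a log2 fold change of 0.61 ± 0.14. Mybl2, which encodes B-MYB, the MuvB partner that acts before and with FOXM1, read 8.38, 8.18 and 8.12 with the truncated form and 7.84, 7.73 and 7.57 with the full-length form. Its arrays did not overlap either, but its log2 fold change of 0.51 ± 0.12 did not pass (adjusted p = 0.073, limma). A dim second Mybl2 probe gave 0.46 ± 0.16 with overlap. For each of these genes the two-sided exact permutation p over the arrays was 0.1, and no lower p exists for 3 arrays against 3.

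Of the cyclins, CDK1 and its activators, 5 of 7 were tested and none passed. Cdc25c, a phosphatase that activates CDK1 at mitotic entry, read 8.77, 8.27 and 8.21 on the truncated arrays and 7.63, 7.85 and 7.86 on the full-length arrays (0.63 ± 0.16, adjusted p = 0.0872, limma). Cdca3, a ubiquitin ligase adaptor that helps entry into mitosis, read 12.27, 12.15 and 11.95 against 11.70, 11.64 and 11.74. Cdk1, the kinase itself, read 11.05, 10.95 and 10.69 against 10.57, 10.64 and 10.63. In all of these the truncated arrays stood wholly above the full-length arrays, for Cdk1 by a narrow gap set by truncated replicate 3. That is 3 of the 5 tested (60.0%), against 12.9% of all genes tested. Ccnb1, the B cyclin that binds CDK1, had a log2 fold change of 0.32 ± 0.18 with overlapping arrays, and its other probe 0.44 ± 0.15 without overlap. Cdc25b, a second activating phosphatase, stood at 0.08 ± 0.12, the lowest value among the tested members. The single probes of Ccna2 and Ccnb2 were not above background on any array, so nothing can be said of these cyclins.

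Among the mitotic kinases and the chromosomal passenger complex, which corrects faulty attachments and guides cytokinesis, 4 of the 5 tested genes were higher without overlap between the arrays, against 12.9% of all genes tested. Plk1, the polo kinase of mitotic entry and spindle assembly, read 10.93, 10.91 and 10.72 with truncated NELF-B and 10.41, 10.46 and 10.37 with the full-length form. Its log2 fold change was 0.44 ± 0.11 (adjusted p = 0.0817, limma). Aurka, the centrosomal Aurora kinase, read 10.39, 10.29 and 10.21 against 10.04, 9.87 and 9.55. Birc5 (survivin), a passenger subunit, read 12.19, 11.94 and 11.86 against 11.59, 11.64 and 11.57, a log2 fold change of 0.39 ± 0.12, and its 2 other probes gave 0.55 ± 0.14 and 0.50 ± 0.12. Incenp, the scaffold of the complex, stood at 0.35 ± 0.11 without overlap. Cdca8 (borealin) stood at 0.32 ± 0.17, and there truncated replicate 3 lay below all full-length arrays, against the direction of the log2 fold change. No member of this class passed over all genes. The Nek2 probe was not above background, and Aurkb was not analysed here.

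The spindle checkpoint and its APC/C partners split. Mad2l1, which makes the inhibitor that the checkpoint sends to the APC/C, read 11.12, 11.00 and 10.86 on the truncated arrays and 10.49, 10.55 and 10.55 on the full-length arrays (0.46 ± 0.11, adjusted p = 0.0738, limma). Cdc20, the APC/C activator that this inhibitor captures, read 11.95, 11.84 and 11.65 against 11.38, 11.38 and 11.29 (0.46 ± 0.11, adjusted p = 0.0834). All 4 of its probes agree within 0.43 to 0.46 in log2 fold change. The remaining members stood nearer to 0 and their arrays overlapped. Bub1b (BUBR1), another part of the inhibitor, read 9.35, 9.11 and 9.15 against 8.96, 9.08 and 9.17. Bub3, its binding partner, had a log2 fold change of 0.09 ± 0.11 (95% interval -0.16 to 0.34) and Ube2c, the ubiquitin-conjugating enzyme of the APC/C, of 0.13 ± 0.13. Ube2c, the dimmest member tested, missed the background threshold on 1 full-length array. The median of this class was 0.13, the lowest of the classes in the fit reported, and 0.30 over the genes above background on all 6 arrays. The probes of Bub1 and Ttk were not above background.

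Centromere and kinetochore genes had a median of 0.26, and 5 of 8 were tested. Ndc80, of the complex that grips microtubules, read 9.14, 9.18 and 8.84 with truncated NELF-B and 8.71, 8.70 and 8.75 with the full-length form. The arrays of its partners in that complex, Spc24 (0.45 ± 0.23) and Spc25 (0.26 ± 0.15), overlapped. Both varied more than Ndc80 between full-length arrays (SD 0.34 and 0.27 against 0.03). Between truncated arrays Spc24 did (0.41 against 0.19) and Spc25 did not (0.14). Cenpa, the histone H3 variant that marks the centromere, had the highest signal of the tested members and read 13.51, 13.37 and 13.31 against 13.22, 13.20 and 12.99, a log2 fold change of 0.26 ± 0.12. Cenph, of the inner kinetochore, read 7.00, 6.81 and 6.86 against 6.64, 6.73 and 6.57. None of the 5 passed over all genes. The truncated arrays of Ndc80, Cenpa and Cenph were higher without overlap (60.0% of the 5, against 12.9% of all genes tested). Cenpe and Nuf2 were not above background, and Cenpf was not analysed here.

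The spindle motors and microtubule proteins formed the class with the most tested genes, 8 of 12, with a median log2 fold change of 0.44. Of these, 6 were higher without overlap (75.0%, against 12.9% of all genes tested). Kif22, a chromosome arm motor, read 11.06, 10.94 and 10.71 on the truncated arrays and 10.53, 10.50 and 10.35 on the full-length arrays (0.45 ± 0.12, adjusted p = 0.108, limma). Kif11, the motor that pushes spindle poles apart, read 9.28, 8.89 and 9.04 against 8.63, 8.70 and 8.16 (0.57 ± 0.17). Nusap1, which bundles spindle microtubules, read 10.12, 9.89 and 9.92 against 9.63, 9.69 and 9.42. In each of them the lowest value of all belonged to full-length replicate 3. A further dim Nusap1 probe gave -0.06 ± 0.16. The chromokinesin Kif4 (0.50 ± 0.17), the microtubule depolymerase Kif2c (0.43 ± 0.17) and the Aurora A activator Tpx2 (0.38 ± 0.12) did not overlap either. Dlgap5, a spindle protein, stood at 0.47 ± 0.22 and Stmn1 (stathmin), a tubulin-binding protein, at 0.09 ± 0.17, both with overlap. No gene of the class passed over all genes.

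All 3 tested genes of the midzone and cytokinesis class were higher without overlap, against 12.9% of all genes tested, with a median of 0.48. Anln (anillin), the scaffold of the contractile ring, read 11.70, 11.53 and 11.56 with truncated NELF-B and 11.13, 11.25 and 10.71 with the full-length form (0.57 ± 0.15, adjusted p = 0.0959, limma). Kif23, a motor of the centralspindlin complex, read 9.69, 9.42 and 9.75 against 9.20, 9.22 and 9.01 (0.48 ± 0.13, adjusted p = 0.0958). Prc1, which bundles midzone microtubules, read 12.01, 11.88 and 11.96 against 11.60, 11.69 and 11.26. Here truncated replicate 3 was not nearest to the full-length arrays, unlike in most other classes. Kif20a, Kif20b and Racgap1 were not analysed here.

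Of the chromosome structure genes 2 could be tested, and no test was made between them. Ncaph, a subunit of condensin I, read 10.39, 10.42 and 10.28 on the truncated arrays and 10.02, 10.01 and 9.60 on the full-length arrays (0.48 ± 0.14, adjusted p = 0.110, limma). Top2a, the topoisomerase that untangles sister chromatids, read 10.45, 10.27 and 10.29 against 10.19, 10.42 and 10.09, with overlap and a log2 fold change of 0.10 ± 0.12 (95% interval -0.17 to 0.38). The Smc2 probe was not above background, and Smc4 and Mki67 were not analysed here.

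**Figure D2:**
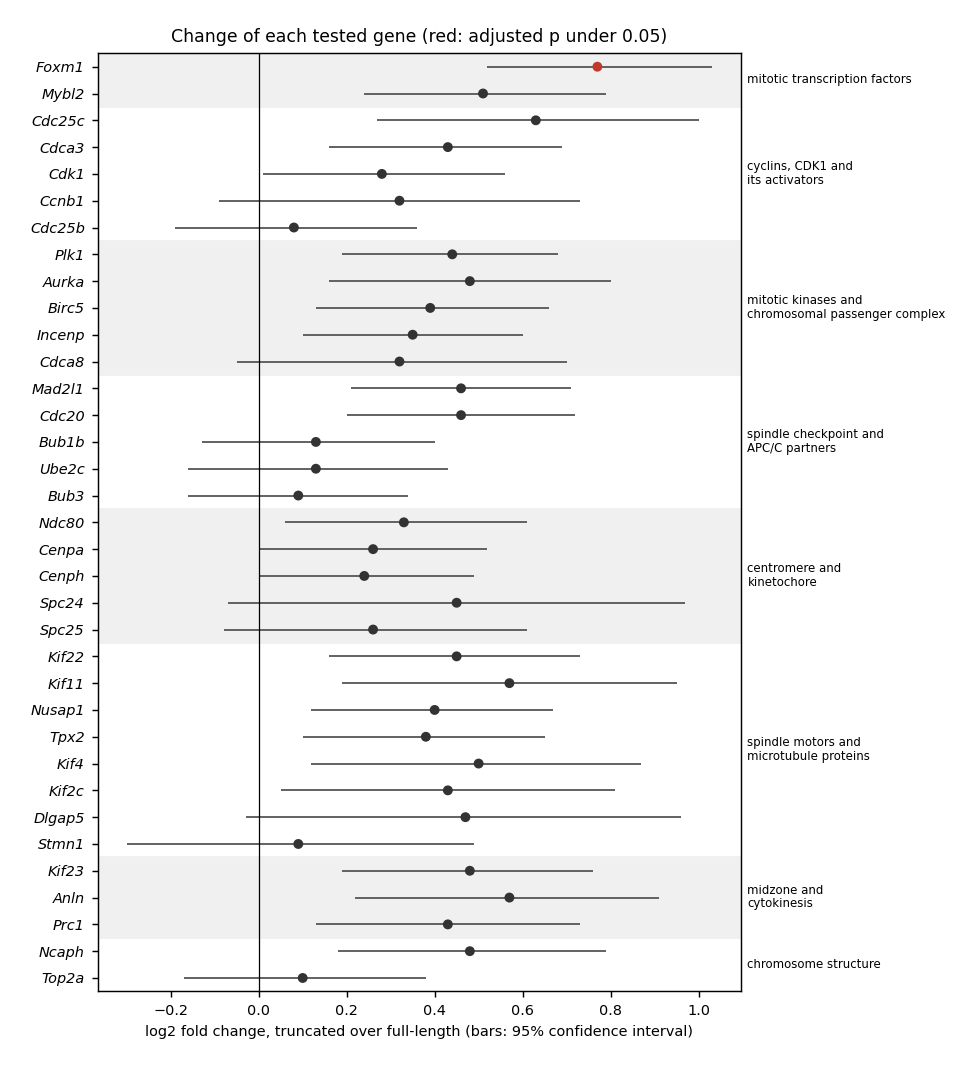
Log2 fold change of the 35 tested genes (points, truncated over full-length) with 95% confidence intervals from limma (bars), n = 3 arrays per form. All points lie above 0, the bars of 22 genes do not reach 0, and Foxm1, in red, is the gene with an adjusted p under 0.05.

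For 9 of the 54 there was no row in the table used here, and for 10 no probe was above background on at least 3 arrays. Of these 10, the probe of Tacc3, a spindle protein, was above background on 1 array of each form, and the probes of Ccna2, Ccnb2, Nek2, Bub1, Ttk, Cenpe, Nuf2, Hmmr and Smc2 on none. Their deposited intensities lay between 112 and 156 on every array. Every tested member was above background on at least 2 arrays of each form.

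The order of the class medians was transcription factors (0.64), midzone and cytokinesis (0.48), spindle motors (0.44), kinases and passenger complex (0.39), cyclins and CDK1 (0.32), chromosome structure (0.29), kinetochore (0.26) and checkpoint (0.13). Neighbouring classes differed by 0.03 to 0.17. That was less than the spread of a class median between arrays of 1 form (SD 0.11 to 0.21) for every step but the last, from kinetochore to checkpoint, where 0.13 stood against 0.12, when each step is set against the larger SD of its 2 classes. The first step, 0.17, was within the SD of the midzone class (0.21) but above that of the transcription factors (0.11). The low end of the order turned with the processing. Over genes above background on all 6 arrays the checkpoint median (0.30) was above those of kinetochore (0.26) and chromosome structure (0.29), with no detection filter chromosome structure (0.10) was lowest, and without full-length replicate 3 chromosome structure and checkpoint were both at 0.19. The classes hold 2 to 8 tested genes each and no test was made of their order. The 17 dimmer members (5.08 to 9.38) had a median of 0.33 and the 18 brighter ones (9.38 to 13.27) of 0.43.

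The members moved together from array to array. Centred on the 6 arrays, the mean log2 signal of the 35 genes was 0.32, 0.17 and 0.07 on truncated replicates 1, 2 and 3 and -0.18, -0.12 and -0.27 on full-length replicates 1, 2 and 3. The groups did not overlap, and truncated replicate 3 stood nearest to the full-length arrays. Truncated replicate 1 was the highest of its form for 27 of the 35 genes, against 32.4% of all genes tested, and truncated replicate 3 the lowest for 22, against 33.3% of all genes. Full-length replicate 3 was the lowest of its form for 20 of the 35, against 37.6% of all genes. For the midzone class its mean was -0.48, and -0.09 and -0.16 on the other full-length arrays. Without truncated replicate 1 the median of the members was 0.32, and without truncated replicate 3 it was 0.46. In the fits that left out 1 array, Foxm1 had log2 fold changes from 0.73 to 0.84.

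**Figure D3:**
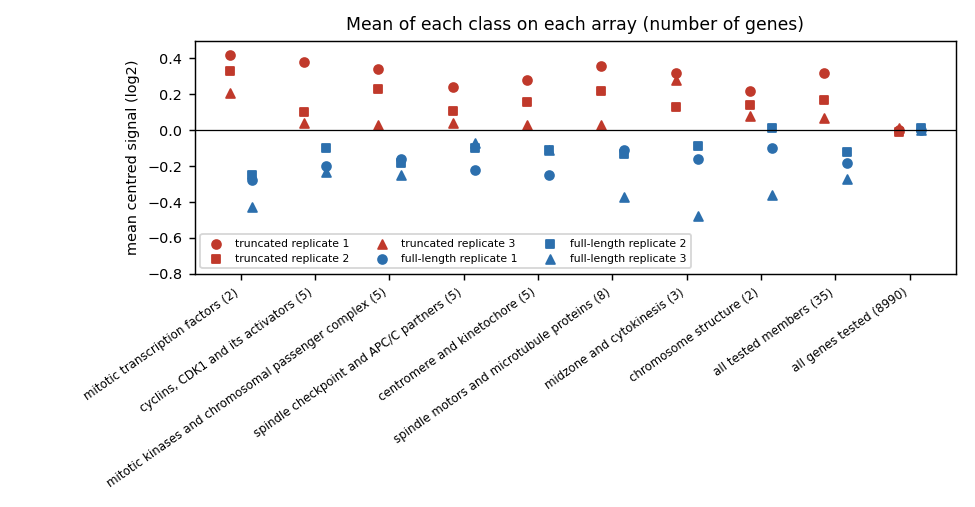
Mean log2 signal of each class on each array (vertical axis, each gene centred on its mean over the 6 arrays), with truncated arrays in red and full-length arrays in blue and the number of genes in brackets. In every class the red symbols lie above the blue ones, while the means of all 8990 genes lie between -0.01 and 0.01.

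Further probes of the same genes bear on single members. More than 1 probe passed for 12 of the 35, which gives 16 further probes. Of these, 15 had a log2 fold change above 0, as did 51.7% of all genes tested. For 11 the truncated arrays were higher without overlap, which held for 12.9% of all genes tested. The further probes were read on the same arrays as the reported ones, so they are not independent evidence of a difference between the forms. The exception in sign was the dim Nusap1 probe named above. Cdc25c was less certain, since its second probe, of nearly the same signal, gave 0.25 ± 0.13 with overlap. The second Spc24 probe gave 0.16 ± 0.15 with overlap, against 0.45 ± 0.23 for the probe reported. A dim second Anln probe gave 0.29 ± 0.13 without overlap, against 0.57 ± 0.15.

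Promoter sequences were read because MuvB, B-MYB and FOXM1 act through known letters. RefSeq promoters (assembly GRCm38.p6) were found for 43 of the 54 genes, 45 promoters in all, and the 250 bases before each start were searched on both strands. The letters taken for CHR were TTTGAA, with TTCGAA as a second spelling. A CCAAT box was any match of its name, and an E2F site was TTTGGCGC, with TTTCGCGC as a second spelling. No 2 different motifs overlapped in these promoters. CHR letters were found in 15 of the 45 (33.3%), against 17.1% of the 32851 promoters in the table, a CCAAT box in 33 (73.3%, against 33.8%), both in 14 (31.1%, against 6.02%) and the E2F letters in 1 (2.22%, against 0.654%). A match is a description of letters and not of a bound site. The 4 printed below are those of the genes with the smallest p that hold CHR letters, because they show how the letters sit relative to each other. Motif letters are in capitals on either strand, so a CHR or CCAAT box on the opposite strand appears as its reverse complement. Each sequence runs 5′ to 3′ along its gene and ends 1 base before the start. Cdc20 is at chr4:118437344-118437593 (minus strand), Kif22 at chr7:127042421-127042670 (minus strand), Kif11 at chr19:37376132-37376381 (plus strand) and Prc1 at chr7:80294226-80294475 (plus strand), the one of its 2 listed promoters that holds CHR letters.
Cdc20: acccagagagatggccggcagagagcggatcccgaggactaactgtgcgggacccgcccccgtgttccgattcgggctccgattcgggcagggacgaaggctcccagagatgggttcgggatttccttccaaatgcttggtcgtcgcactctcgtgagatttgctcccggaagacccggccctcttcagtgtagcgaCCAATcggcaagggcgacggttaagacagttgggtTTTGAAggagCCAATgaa
Kif22: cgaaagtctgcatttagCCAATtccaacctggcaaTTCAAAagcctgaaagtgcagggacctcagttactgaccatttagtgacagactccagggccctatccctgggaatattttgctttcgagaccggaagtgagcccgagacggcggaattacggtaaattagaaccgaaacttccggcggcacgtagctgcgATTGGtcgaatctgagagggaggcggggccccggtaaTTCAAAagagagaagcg
Kif11: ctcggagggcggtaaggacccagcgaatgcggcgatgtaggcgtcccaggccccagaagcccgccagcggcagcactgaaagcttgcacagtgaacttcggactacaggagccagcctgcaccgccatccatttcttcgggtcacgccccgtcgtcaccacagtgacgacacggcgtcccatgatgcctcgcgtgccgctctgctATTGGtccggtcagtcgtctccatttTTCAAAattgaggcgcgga
Prc1: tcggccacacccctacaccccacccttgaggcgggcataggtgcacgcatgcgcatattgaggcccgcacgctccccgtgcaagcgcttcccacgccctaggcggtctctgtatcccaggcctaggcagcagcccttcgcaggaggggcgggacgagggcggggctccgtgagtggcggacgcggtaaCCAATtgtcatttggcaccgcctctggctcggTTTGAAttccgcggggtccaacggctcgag
In these 4 promoters the CHR nearest to the start began 17 to 30 bases before it, and a CCAAT box lay upstream of it with 21 to 32 bases between them. Kif22 holds a second CHR and a second CCAAT box farther upstream, and Cdc20 a CCAAT box downstream of its CHR. Kif2c, the next gene by p with CHR letters, holds no CCAAT box and is not printed. Of the 10 tested genes with CHR letters, 9 also hold a CCAAT box.

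Among the 28 tested genes with a promoter, the 10 with CHR letters had a median log2 fold change of 0.36 (0.09 to 0.57) and the 18 without one of 0.42 (0.08 to 0.57). Top2a, Bub1b, Bub3 and Ube2c hold CHR letters and were among the members nearest to 0. Cdc25b (0.08), also near 0, holds none, and Kif11 (0.57), Cdc20 (0.46) and Kif22 (0.45) hold them. Foxm1 and Cdc25c were not among the 28 genes. With a CCAAT box the median was 0.32 (19 genes, 0.08 to 0.57) and without one 0.43 (9 genes, 0.24 to 0.57). Whether either motif bears on the change was not tested.

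Other genes of mitosis, from lists that do not share a gene with the 54, stood above 0 less far. Of 109 such genes 73 were tested, 63 of them with a value above 0, and their median was 0.26. None passed over all genes in either direction with limma (0.512% of all genes tested passed as higher), 28 were higher at an unadjusted p under 0.05 (38.4%, against 9.78% of all genes tested) and 0 lower (against 10.3%). The value varied by list, and the further centromere and kinetochore genes had a higher median than the member class of that role (0.26). The 17 tested further centromere and kinetochore genes had a median of 0.35, with 9 higher at an unadjusted p under 0.05 (52.9%, against 9.78% of all genes tested), and the smallest p were those of Kntc1, which recruits the checkpoint to kinetochores (0.43 ± 0.10, adjusted p = 0.0752), and Mis18a, which prepares centromeres for CENP-A (0.51 ± 0.14, adjusted p = 0.0964). The 5 tested DREAM and MuvB genes, whose products repress or activate the mitotic genes, also had a median of 0.35. All 5 were higher without overlap, as were 12.9% of all genes tested, and E2f4, a repressor of the DREAM complex, stood at 0.37 ± 0.12 and E2f5 at 0.41 ± 0.14. The 21 further spindle, cytokinesis and condensin genes had a median of 0.30, and the smallest p were those of the mitotic kinase Pbk (0.42 ± 0.11) and the motor Kif18a (0.52 ± 0.14).

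Nearer to 0 were the lists of the APC/C, of cohesin, and of CDK1 brakes together with mitotic phosphatases. The 12 tested APC/C subunits and coactivators had a median of 0.10, with Fzr1, the CDH1 coactivator of late mitosis and G1, at 0.28 ± 0.11. The ubiquitin-conjugating enzyme Ube2s stood at 0.53 ± 0.24, but it was dim and its arrays overlapped (6.32, 6.01 and 5.31 against 5.25, 5.18 and 5.62). Cohesin and its regulators (10 tested) had a median of 0.09. Within that list the smallest p were those of the protease separase, Espl1 (0.46 ± 0.14), and the cohesin protector Sgo1 (0.38 ± 0.12). The list of brakes and phosphatases (8 tested, most of them phosphatases or their regulators) had a median of 0.18. Pkmyt1, a kinase that holds CDK1 back, stood at 0.23 ± 0.12 with overlap. The smallest p were those of Gtse1, a microtubule-binding protein of G2 (0.62 ± 0.13, adjusted p = 0.0585, limma), and Cdc25a (0.35 ± 0.13). The Gtse1 signal was 10.09, 10.15 and 9.74 on the truncated arrays and 9.46, 9.38 and 9.28 on the full-length arrays, which did not overlap.

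How many members passed depended on the processing far more than their values did. A called gene needed an unadjusted p of at most 0.000801 in the fit reported, and the smallest change called over all genes was 0.52 on the log2 scale, above the value of most members. With no background correction, 18 of the 35 were higher at an adjusted p under 0.05 (51.4%, against 3.73% of all genes tested), with the series matrix values 18 (against 3.89%), with a variance trend and robust eBayes 18 (against 3.82%) and with an offset of 50 in place of 16, 15 (42.9%, against 2.58%). The same 15 genes passed in each of these 4 fits, Foxm1, Mybl2, Cdc25c, Cdca3, Plk1, Aurka, Birc5, Mad2l1, Cdc20, Kif11, Kif22, Kif23, Anln, Prc1 and Ncaph. With array weights 5 passed (14.3%, against 1.65%).

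**Figure D4:**
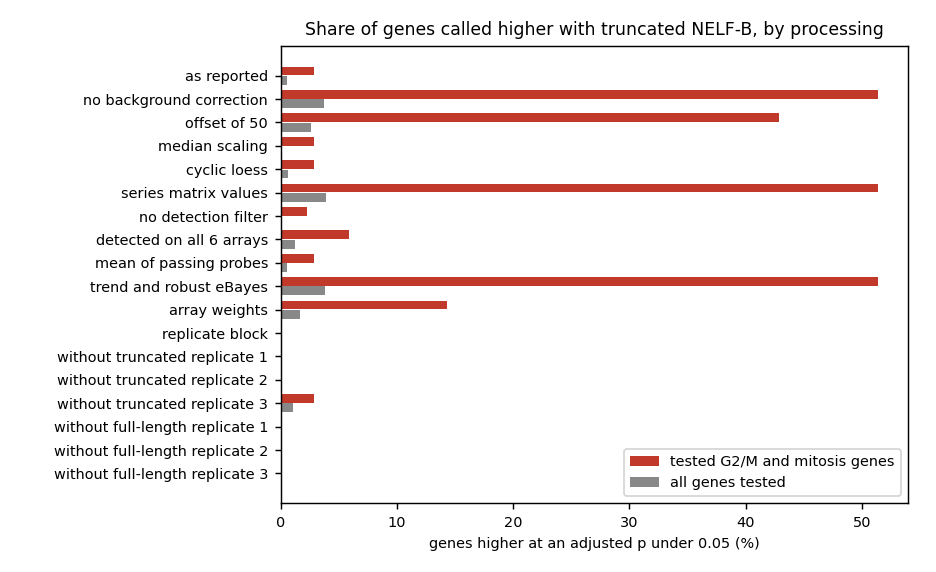
Share of genes higher at an adjusted p under 0.05 (%, horizontal axis) among the tested G2/M and mitosis genes (red) and among all genes tested (grey), for the fit reported and 17 alternatives. The red share is 2.86% as reported, 51.4% in 3 alternatives and 0 with the replicate block and in 5 of the 6 fits that leave out 1 array.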

How the data were processed

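Biotin-labelled RNA of 6 samples was read on Illumina bead arrays, per the labels, and GenomeStudio is named in the submitters' processing notes. Titles gave the groups. The deposited table gives an average signal intensity (lowest 103, no background subtraction) and a detection p-value per probe and array, per the file headers, and calls itself non-normalized. In the series matrix are linear intensities that the authors had made alike between arrays (median 143), by an unstated method, and served as an alternative. No column was left out (0 columns), and no 2 arrays were identical. Neither chip nor scan date is given, so no array batch could be fitted.

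Probes were named by RefSeq accession (24202), current symbol (536) or unique synonym (297) in the gene table of GRCm38.p6, and 662 kept the file's symbol. With limma 3.58.1 in R 4.3.3, intensities were corrected by normexp from the detection p-values, given an offset of 16, quantile normalized and log2 transformed, which understates folds of dim probes. Kept were probes above background (detection p under 0.05) on 3 or more arrays, with the brightest probe per gene. The groups were compared over all 8990 genes with lmFit and eBayes, and p-values were adjusted by Benjamini-Hochberg (threshold 0.05). SE and 95% intervals are from that fit, and n is 3 arrays per form. The fit was tested on simulated data. Figures were drawn with matplotlib 3.10.9.

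The members, their classes, the other gene lists and the motifs were chosen with earlier results of these data known. Values on every array are given for each member past the threshold and the 3 with the smallest p in each class, and the 2 with the smallest p are named in each other list. Other tested members are given by log2 fold change. The intervals of Top2a and Bub3, the per-array Gtse1 values and the genes shared by 4 alternatives were picked after their values were seen. So were Pkmyt1 and the members named by CHR letters and change. Of the promoters with CHR letters, those with the smallest p are printed. Alternatives changed background, offset, normalization, filter, probes per gene, variance model, weights, block and arrays.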

Additional observations from a re-analysis of the deposited data

How the results depend on the processing

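Over 17 alternatives the median of the tested members lay between 0.32 and 0.46, the number of members higher at an unadjusted p under 0.05 between 17 and 27, and no member was lower at an adjusted or an unadjusted p under 0.05. Every tested member stood above 0 in 12 of the 17. In the others, Cdc25b (-0.01 with median scaling, -0.02 without truncated replicate 1), Stmn1 (-0.01 without truncated replicate 2, -0.04 without full-length replicate 2) or, with no detection filter, Smc2 (-0.07) and Ccnb2 (at 0) did not. The count of genes called over the whole table was 144, and 706 with no background correction, 731 with the series matrix, 728 with a trend and robust eBayes, 531 with an offset of 50, 354 with array weights, 250 for genes detected on all 6 arrays, 81 with median scaling and 33 with no detection filter. Leaving out 1 array gave 0 to 274 calls. Among the truncated arrays the count was 0, 9 and 274 when replicate 1, 2 or 3 was dropped, and among the full-length arrays 0, 0 and 6. Of the genes called, 31.9% were higher as reported and 14.8% with median scaling. The members called higher, 1 as reported, were 18 with no background correction, the series matrix or the trend. With the offset they were 15 and with weights 5. For genes detected on all 6 arrays 2 were called (5.88%, against 1.18% of all genes tested), and 0 to 1 when 1 array was left out. Of the 73 other mitosis genes tested, 0 were called higher as reported (against 0.512% of all genes tested). With no background correction 14 were (against 3.73%), and with the series matrix 14 (against 3.89%). The trend gave 11 (against 3.82%), the offset 8 (against 2.58%) and weights 2 (against 1.65%). For genes detected on all 6 arrays 1 was called (against 1.18%), and 0 to 1 when 1 array was left out (against 0 to 1.05%). Class medians moved beyond the spread between arrays for the transcription factors (0.48 with no background correction, 0.44 with the series matrix), chromosome structure (0.10 with no detection filter, where Smc2 enters) and the checkpoint class (0.30 for genes detected on all 6 arrays, where Ube2c leaves). The groups share replicate numbers, but nothing in the labels pairs them. Same-numbered arrays deviated with correlations of 0.032, -0.159 and -0.136, and 2 of the 6 arrays correlated best with their own number. With the replicate block 33 genes were called and 0 members (Foxm1 at 0.77, adjusted p = 0.0607, limma). Of the 54 genes, 9 had no row and 10 had no probe above background on at least 3 arrays, so these gave no tested value.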
